A study of Solanum tuberosum with 8 samples.

Results

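Tubers of the tetraploid potato cultivar Xingjia 2 (X2) sampled 24 h after cut-wounding were compared with X2 tubers sampled at 0 h. The comparison takes its members by column name and holds 5 of the 22 columns of per-sample values in the deposited table, namely the 2 libraries of 24 h, replicates 1 and 3, and the 3 libraries of 0 h. The study cut field-grown, stored tubers across, kept the pieces in humid trays and followed gene expression up to 24 h, and the series also holds tubers labelled D6, a name that the sources used here do not explain. No chemical treatment separated the groups, and the labels of the 24 h and 0 h tubers differ in the time after the cut alone. Each X2 library is, according to the methods, a mix from 3 tubers, and the tissue was a block reaching from skin to pith. In such bulk tissue, a change in the number of cells of a kind and a change in RNA per cell cannot be told apart.

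Cutting exposes the storage parenchyma of a tuber to air. The known wound response first seals the surface with suberin, a polymer of fatty acids and phenolics that lines the cell walls, and then forms a wound periderm, a skin produced by new cell divisions below the surface. Phenylpropanoid metabolism supplies the phenolics for suberin, lignin and flavonoids, and polyphenol oxidases and peroxidases oxidise phenolics to the brown pigments of cut potato.

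Expression was deposited as FPKM, a count scaled to gene length and to library size. The libraries held 31557565 and 35095141 reads on genes at 24 h, against 29746308, 41921672 and 35082327 at 0 h, as recovered from the steps in the low FPKM values. Over the genes tested, Pearson's r on log2(FPKM + 0.1) was 0.979 between the 24 h libraries and 0.979 to 0.982 between the 0 h libraries, against 0.624 to 0.708 between the times. The 100 most abundant genes of each library took 20.2% and 19.7% of all FPKM at 24 h, against 24.7% to 25.5% at 0 h. The median log2 fold change (log2FC, 24 h over 0 h) of all 19690 genes tested was 0.37, and median-of-ratios scaling, which sets the middle gene near no change, moved it to 0.03. A gene counted as called when the fitted change reached 2-fold (|log2FC| no less than 1) with p no more than 0.01 before adjustment. With FPKM as deposited 50.5% of the genes tested were called, 33.5% up and 17.0% down, and after that scaling 49.8% were called, 26.5% up and 23.3% down. The counts of each list are read against these shares. The labels do not say whether the libraries of a time came from separate plants, so that the p-values measure only the spread between these pools of tubers.

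The listed genes of mitosis and cytokinesis were mostly below 1 FPKM at 0 h and above it at 24 h. Of the 43 genes of the cell division list, 39 passed the FPKM filter, 36 were called up and 3 down, and the median log2FC was 5.72. It was 6.24 with the 15 members that had at most 3 reads in every 0 h library set to their lower bound, and the counts were the same after median-of-ratios scaling. In this list and those below, a member near 0 FPKM at 0 h passed the filter only through its 24 h values. The call up of such a member was thus largely set in advance. The study chose these genes for large changes on these samples, so that their direction is no independent evidence. The same holds for every list below, browning enzymes and transcription factors included, since they were drawn up with changes in these samples in view, and some genes stand in several lists.

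Knolle (PGSC0003DMG400016283), named for the Arabidopsis syntaxin that fuses vesicles into the new cell plate, had 17.8 and 25.9 FPKM at 24 h, against 0, 0 and 0.0261 FPKM at 0 h. With at most 2 reads in any 0 h library only a lower bound can be given, and set against the FPKM of 3 reads per library Knolle was at least 556-fold higher at 24 h, with no overlap between the groups. Cell division control 20 (PGSC0003DMG401027032), an activator of the anaphase-promoting complex, had 16.3 and 22.7 FPKM at 24 h, against 0.0246, 0 and 0.0104 FPKM at 0 h. Both 24 h libraries were far above all 0 h libraries, at least 619-fold by the means. Clasp (PGSC0003DMG400006294), a protein of growing microtubule ends, had 17.1 and 25.0 FPKM at 24 h, against 0.0352, 0.0125 and 0.0149 FPKM at 0 h, and was at least 467-fold higher at 24 h. In each of these 3 genes replicate 3 was the higher of the 24 h libraries. Patellin-4 (PGSC0003DMG400021106), a phosphoinositide-binding protein that stands in the list by its keyword, had 45.5 and 46.8 FPKM at 24 h, against 0.0793, 0.0161 and 0.0960 FPKM at 0 h, with a log2FC of 8.18 ± 0.28 (SE, adjusted p = 1.52e-05). Its 24 h libraries nearly coincided, and the groups did not overlap. Genes named by size of change, here and below, were taken only from called genes without overlap between the groups. Non-overlap in them is therefore no added evidence.

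The other members called up included 8 genes described as cyclins of the A or B type, which drive entry into mitosis, with log2FC of 5.46 for Cyclin B1 (PGSC0003DMG400005948) to 7.04 for a B-type cyclin (PGSC0003DMG400007172). B2-type cyclin dependent kinase (PGSC0003DMG400010003) had a log2FC of 7.19 and the bipolar kinesins KRP-130, motors of the spindle, of 5.20 (PGSC0003DMG400019214) and 5.93 (PGSC0003DMG400030391). The 3 members called down were a condensin subunit 1-like gene (Novel02936, log2FC -5.53), a cohesin subunit SA-1-like gene (Novel00007, -3.77) and microtubule-associated protein futsch (PGSC0003DMG400012631, -4.66). Condensin and cohesin hold and fold chromosomes, and another condensin subunit 1 gene (PGSC0003DMG400029835) was called up at 4.56. Novel02936 averaged 0.0859 FPKM at 24 h and 8.42 FPKM at 0 h, and its 24 h libraries had at most 2 reads, so that it was at least 49.9-fold lower.

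**Figure D1:**
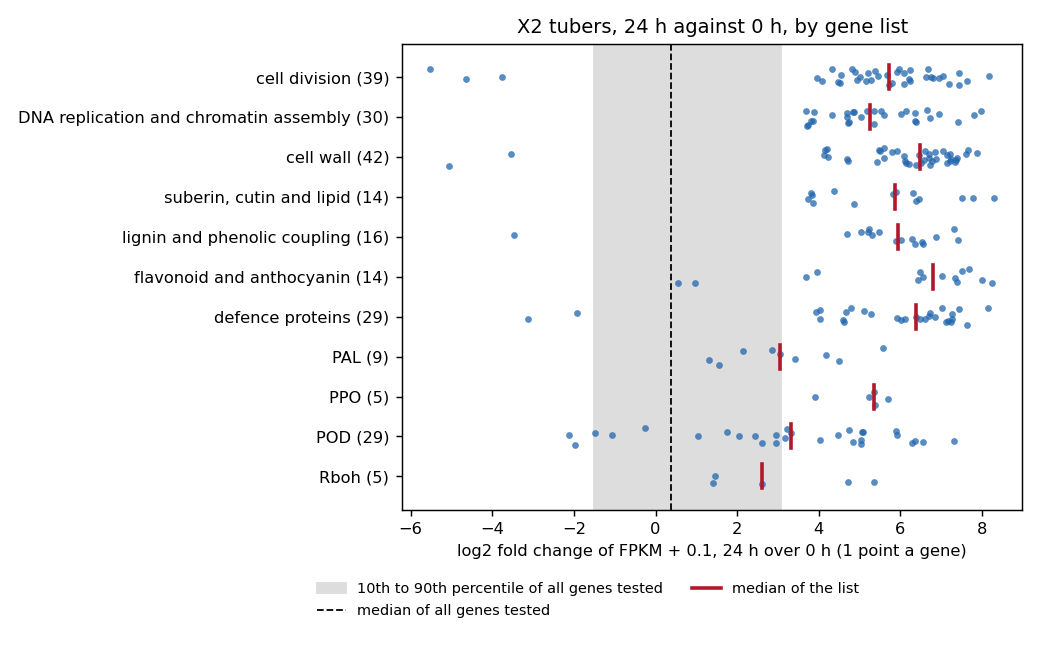
Each point is a gene, placed at its log2 fold change of FPKM + 0.1, 24 h over 0 h, in the X2 tubers, with 1 row per gene list, the number of members tested in parentheses and a red bar at the median of the list. The grey band spans the 10th to the 90th percentile of all 19690 genes tested and the dashed line their median, and the medians of the lists from cell division to defence proteins lie between 5.27 and 6.79, to the right of the band.

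The 24 h levels were also compared with those of the X2 tubers of 12 h (3 libraries). Between 24 and 12 h, 12.1% of 19733 genes were called, 7.41% higher at 24 h and 4.73% lower. In the cell division list, 37 of 40 members tested were called higher at 24 h than at 12 h and 2 lower, with a median difference of 4.60 on the log2 scale against -0.078 for all genes. The list was chosen for large changes in samples that include those of 24 h. Its share called higher is therefore no independent evidence of timing, and the same holds for the 12 h counts of the lists below. At least 1 FPKM in every library was reached by 36 of the 43 members at 24 h, against 8 at 12 h and 3 at 0 h. The share of all genes at this level was not determined, so that such counts, here and below, describe the lists only. Knolle differed from its 12 h level by 6.65 ± 0.32 (SE, adjusted p = 0.000115), and Cell division control 20 by 6.82 ± 0.38 (SE, adjusted p = 0.000154). The 12 h libraries held 0.122, 0.189 and 0.0561 FPKM of Knolle, all above the 0 h libraries and far below those of 24 h. The 2 members that were lower at 24 h than at 12 h were both A-type cyclins, Novel01245 (a putative cyclin-A3-1-like gene, 0.829 FPKM at 24 h and 3.63 FPKM at 12 h on average) and Cyclin A (PGSC0003DMG400021519, 1.02 FPKM at 24 h and 2.17 FPKM at 12 h).

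The listed genes of DNA replication and chromatin assembly were higher at 24 h than at 0 h as well, but most were already expressed at 12 h. The study also reported DNA replication among the pathways enriched in the genes it found down-regulated at every later time. The list therefore does not stand for all genes of replication. Of 31 listed genes 30 passed the filter and all 30 were called up against 0 h, with a median log2FC of 5.27, and 29 of 29 after median-of-ratios scaling. Against 12 h, 9 of 31 were called higher at 24 h, 10 lower and 12 neither, and the median difference was -0.11. Without replicate 3 of 24 h, 4 were called higher. In this list 27 of 31 genes had at least 1 FPKM in each 12 h library, against 1 in each 0 h library, and all 31 in each 24 h library.

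The 10 that were lower at 24 h than at 12 h were all genes of replication origins, the replication fork or nucleotide supply. Cdc6 (PGSC0003DMG400030351), which loads the helicase onto origins, averaged 2.44 FPKM at 24 h and 11.2 FPKM at 12 h, a difference of -2.15 on the log2 scale. Minichromosome maintenance 5 (PGSC0003DMG400011837), a subunit of that helicase, averaged 7.98 FPKM at 24 h and 34.0 FPKM at 12 h, a difference of -2.09. MCM3, MCM10, subunits 4 and 6 of the origin recognition complex, replication factor A, the 70 kDa subunit of replication protein A, an OB-fold protein and a deoxyuridine triphosphate nucleotidohydrolase made up the rest. All of them remained called up against 0 h.

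The 9 that were higher at 24 h than at 12 h were 7 core histone genes, DNA topoisomerase 2, which untangles chromosomes, and a delta DNA polymerase. DNA topoisomerase 2 (PGSC0003DMG400006793) averaged 9.10 FPKM at 24 h, 0.0318 FPKM at 12 h and 0.00974 FPKM at 0 h. A histone H3.2 gene (PGSC0003DMG400022836) had 71.7 and 105 FPKM at 24 h, against 0.495, 0.373 and 0.367 FPKM at 0 h, with a log2FC of 7.42 ± 0.22 (SE, adjusted p = 1.52e-05), and differed from 12 h by 2.12 ± 0.17 (SE, adjusted p = 0.00033). Its 24 h libraries were above all others. The histone H3.2 gene PGSC0003DMG400025246 had 60.2 and 83.3 FPKM at 24 h, against 0.269, 0.143 and 0.142 FPKM at 0 h, with a log2FC of 7.99 ± 0.26 (SE, adjusted p = 1.52e-05), whereas its difference from 12 h, 0.85 ± 0.17 (SE, adjusted p = 0.00762), stayed under the fold threshold. Histone H4 (PGSC0003DMG400015525) had 69.1 and 97.1 FPKM at 24 h, against 0.627, 0.942 and 0.281 FPKM at 0 h, with a log2FC of 6.96 ± 0.42 (SE, adjusted p = 3.48e-05). The levels of single H3.2 and H4 genes are uncertain, because reads of nearly identical copies can be split between them, and how such reads were counted is not given in the sources used here.

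**Figure D2:**
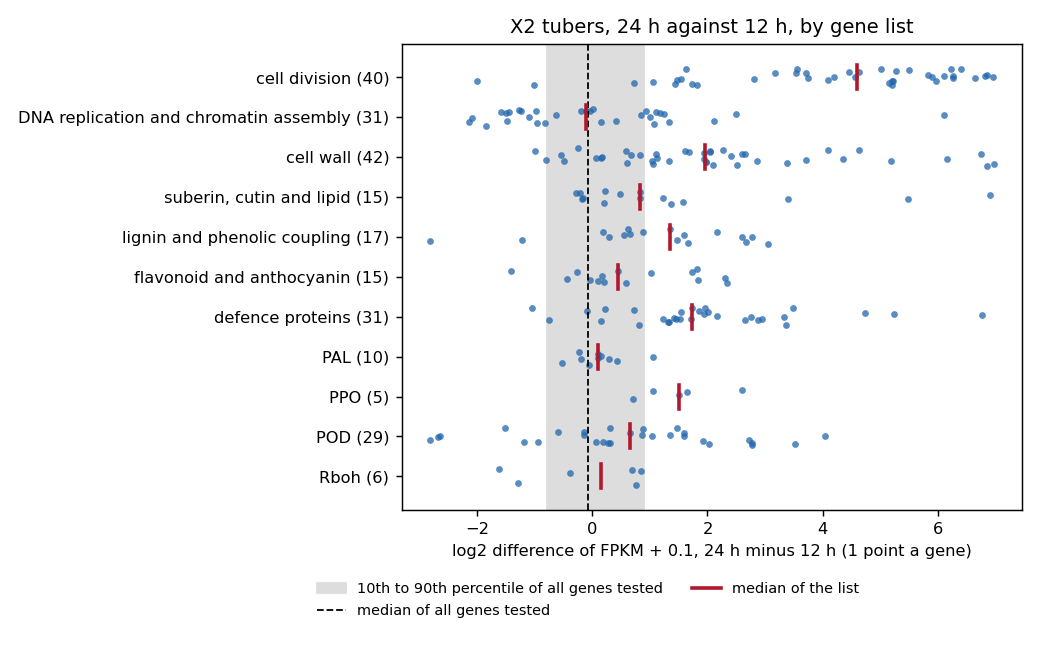
Each point is a gene, placed at its log2 difference of FPKM + 0.1, 24 h minus 12 h, in the X2 tubers, with the same lists, red medians and grey band as for 24 h against 0 h. The cell division list has its median at 4.60, the DNA replication and chromatin assembly list at -0.11 with points on both sides, and the flavonoid and PAL lists at 0.45 and 0.10, near the median of all genes.

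Most of the listed cell wall genes were higher at 24 h than at both 0 and 12 h. The list was chosen for large changes in these samples and does not stand for all cell wall genes. Against 0 h, 40 of 42 members tested were called up and 2 down, with a median log2FC of 6.48 (6.64 with lower bounds for the 10 members at the detection limit), and the counts did not move with median-of-ratios scaling. Against 12 h, 30 of 42 were called higher and none lower, with a median difference of 1.96.

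Extensins, the hydroxyproline-rich glycoproteins that are cross-linked into walls, gave the highest FPKM at 24 h in this list. The extensin gene PGSC0003DMG400000794 had 1002 and 1135 FPKM at 24 h, against 9.88, 6.43 and 3.75 FPKM at 0 h, with a log2FC of 7.40 ± 0.37 (SE, adjusted p = 2.27e-05). The extensin gene PGSC0003DMG400000783 had 409 and 408 FPKM at 24 h, against 2.66, 1.54 and 1.73 FPKM at 0 h, with a log2FC of 7.66 ± 0.22 (SE, adjusted p = 1.52e-05). Neither gene overlapped between the times, and extensin copies may share reads. A phytocyanin-like arabinogalactan protein (PGSC0003DMG400026274) had 28.8 and 32.2 FPKM at 24 h, against 0.0825, 0.0195 and 0 FPKM at 0 h. With at most 3 reads in any 0 h library it was at least 434-fold higher at 24 h, and it differed from 12 h by 6.98 ± 0.26 (SE, adjusted p = 0.000103). Beta-D-glucan exohydrolase (PGSC0003DMG400003013), which splits wall glucans, had 45.3 and 54.0 FPKM at 24 h, against 0.319, 0.121 and 0.0811 FPKM at 0 h, with a log2FC of 7.60 ± 0.37 (SE, adjusted p = 2.15e-05).

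Enzymes that loosen or cut the wall were also called up. Expansin11 (PGSC0003DMG400009951) had a log2FC of 7.35, pectate lyase (PGSC0003DMG400015230) of 7.36, pectinesterase (PGSC0003DMG402019255) of 7.21 and lichenase (PGSC0003DMG400020017) of 7.24. Cellulose synthase A catalytic subunit 3 (PGSC0003DMG400031800), part of the complex that spins cellulose, averaged 10.4 FPKM at 24 h and 0.00870 FPKM at 0 h and differed from 12 h by 6.15 on the log2 scale. The 2 members called down were xyloglucan endo-transglycosylase (PGSC0003DMG400021877), which rejoins wall xyloglucans, and a polygalacturonase-1 non-catalytic subunit beta (PGSC0003DMG400027019). The first averaged 4.03 FPKM at 24 h and 135 FPKM at 0 h, with a log2FC of -5.06, while another xyloglucan endotransglycosylase (PGSC0003DMG402010918) was called up at 6.11.

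In the list of suberin, cutin and lipid genes 14 of 18 had at least 1 FPKM in every 24 h library, against none in every 0 h library. The filter was passed by 14, and all were called up, with a median log2FC of 5.87 (6.14 with lower bounds for 6 members), 13 of 13 after median-of-ratios scaling and 9 with a filter at a mean FPKM of 1. With low 0 h levels, members passed the filter through their 24 h values, so that 14 of 14 called up is no added evidence. Without replicate 3 of 24 h, 9 were called. Methylketone synthase Ib (PGSC0003DMG400025912), named for a tomato enzyme that acts on fatty acid intermediates, had 37.1 and 53.9 FPKM at 24 h, against 0.0942, 0.0267 and 0.0160 FPKM at 0 h, with a log2FC of 8.30 ± 0.31 (SE, adjusted p = 1.55e-05). It differed from 12 h by 5.47 ± 0.33 (SE, adjusted p = 0.000187), and no 24 h library was near a 0 h library. A sterol desaturase (PGSC0003DMG402023841) had 39.8 and 58.5 FPKM at 24 h, against 0.182, 0.0967 and 0.0924 FPKM at 0 h, with a log2FC of 7.78 ± 0.27 (SE, adjusted p = 1.52e-05). A lipid binding protein (PGSC0003DMG400022281) had 33.6 and 27.9 FPKM at 24 h, against 0.0881, 0 and 0.149 FPKM at 0 h, with a log2FC of 7.52 ± 0.40 (SE, adjusted p = 2.61e-05). These groups did not overlap, and the lipid binding protein was listed at 0 in replicate 2 of 0 h. Against 12 h, 6 of 15 members were called higher, 2 without replicate 3 of 24 h, and none lower, and the rest, among them an acyl CoA reductase (PGSC0003DMG400007405, log2FC 5.90), a microsomal oleic acid desaturase (PGSC0003DMG400023833, 5.83) and a non-specific lipid-transfer protein (PGSC0003DMG402016309, 6.46), were not called different from 12 h.

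Lignin and phenolic coupling genes numbered 15 called up and 1 down of 16 tested, with a median log2FC of 5.95 (6.33 with lower bounds for 3 members). Phenylcoumaran benzylic ether reductase (PGSC0003DMG400003691), which reduces coupled phenolic dimers, had 224 and 282 FPKM at 24 h, against 2.61, 0.876 and 1.14 FPKM at 0 h, with a log2FC of 7.40 ± 0.42 (SE, adjusted p = 2.99e-05). A peroxidase (PGSC0003DMG400014867) had 152 and 224 FPKM at 24 h, against 1.84, 0.724 and 0.890 FPKM at 0 h, with a log2FC of 7.31 ± 0.38 (SE, adjusted p = 2.42e-05). Basic blue copper protein (PGSC0003DMG400023751) had 140 and 148 FPKM at 24 h, against 2.90, 0.374 and 1.23 FPKM at 0 h, with a log2FC of 6.86 ± 0.70 (SE, adjusted p = 0.000217). Every 24 h library of these genes was above every 0 h library, and replicate 2 was the lowest of the 0 h libraries in all 3. Laccase (PGSC0003DMG400000684), which couples monolignols, had a log2FC of 6.53, cinnamyl alcohol dehydrogenase (PGSC0003DMG400018446), which makes them, of 5.31, and dirigent 1 (PGSC0003DMG400005426) of 6.02. The member called down was catechol O-methyltransferase (PGSC0003DMG400006696), with means of 0.0116 FPKM at 24 h and 1.22 FPKM at 0 h. Against 12 h, 9 of 17 were higher at 24 h and 2 lower, of which cinnamoyl-CoA reductase (PGSC0003DMG400017842) averaged 21.3 FPKM at 24 h and 50.2 FPKM at 12 h.

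Several of the listed flavonoid and anthocyanin genes reached high levels at 24 h, and most of the list was not called different from 12 h. Of 14 tested, 12 were called up and none down, with a median log2FC of 6.79. Chalcone synthase 2 (PGSC0003DMG400019110), the first enzyme of flavonoid synthesis, had 1144 and 775 FPKM at 24 h, against 8.02, 3.50 and 3.20 FPKM at 0 h, with a log2FC of 7.68 ± 0.41 (SE, adjusted p = 2.56e-05). Chalcone isomerase (PGSC0003DMG400011655), the next enzyme, had 504 and 369 FPKM at 24 h, against 2.66, 1.02 and 1.46 FPKM at 0 h, with a log2FC of 7.99 ± 0.37 (SE, adjusted p = 1.95e-05). Replicate 1 was the higher 24 h library and also the highest 0 h library in both genes, and the times did not overlap. Flavanone 3 beta-hydroxylase (PGSC0003DMG400003563), flavonol synthase (PGSC0003DMG400014093) and anthocyanidin 3-O-glucosyltransferase (PGSC0003DMG400024344) had log2FC of 7.39, 7.03 and 7.34. The difference from 12 h was 0.20 ± 0.18 (SE, adjusted p = 0.405) for chalcone synthase 2 and 0.45 ± 0.19 (SE, adjusted p = 0.104) for chalcone isomerase, and neither was called. In the list 5 of 15 were called higher at 24 h than at 12 h and 1 lower. Anthocyanin acyltransferase (PGSC0003DMG400018014) had the largest log2FC of the list, with 64.0 and 46.4 FPKM at 24 h, against 0.208, 0.00984 and 0.0706 FPKM at 0 h and a log2FC of 8.25 ± 0.44 (SE, adjusted p = 2.6e-05). Its 0 h libraries were uneven, replicate 2 being the lowest, and none reached the 24 h level. It differed from 12 h by 1.83 ± 0.29 (SE, adjusted p = 0.00338). The 2 members not called were flavonoid 8-O-methyltransferase (PGSC0003DMG400004343, log2FC 0.96) and the flavonoid glucosyltransferase UGT73N1 (PGSC0003DMG400035689, 0.55).

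Defence protein genes counted 27 called up and 1 down of 29 tested, with a median log2FC of 6.38, and 23 of 31 were called higher at 24 h than at 12 h and none lower. Osmotin (PGSC0003DMG400003044), an antifungal protein of the thaumatin family, had 45.9 and 63.3 FPKM at 24 h, against 0.203, 0.0721 and 0.0344 FPKM at 0 h, with a log2FC of 8.14 ± 0.37 (SE, adjusted p = 1.94e-05). It differed from 12 h by 4.73 ± 0.20 (SE, adjusted p = 0.000103). A hypersensitive response assisting protein gene (PGSC0003DMG400027473) had 45.9 and 68.6 FPKM at 24 h, against 0.362, 0.0643 and 0.205 FPKM at 0 h, with a log2FC of 7.62 ± 0.45 (SE, adjusted p = 3.23e-05). Chitinase 1 (PGSC0003DMG400015523), which digests fungal walls, had 47.4 and 74.0 FPKM at 24 h, against 0.482, 0.212 and 0.211 FPKM at 0 h, with a log2FC of 7.27 ± 0.35 (SE, adjusted p = 2.06e-05). Both 24 h libraries lay above all 0 h libraries in each, with replicate 3 the higher. Another gene described as chitinase 1 (PGSC0003DMG400025352) was the member called down, with means of 0.0184 FPKM at 24 h and 0.968 FPKM at 0 h. Proteinase inhibitor type-2 CEVI57 (PGSC0003DMG400004548) was not called (log2FC -1.92), with 0.0322 and 0.290 FPKM at 24 h against 1.37, 1.89 and 0.116 FPKM at 0 h, which overlap.

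**Figure D3:**
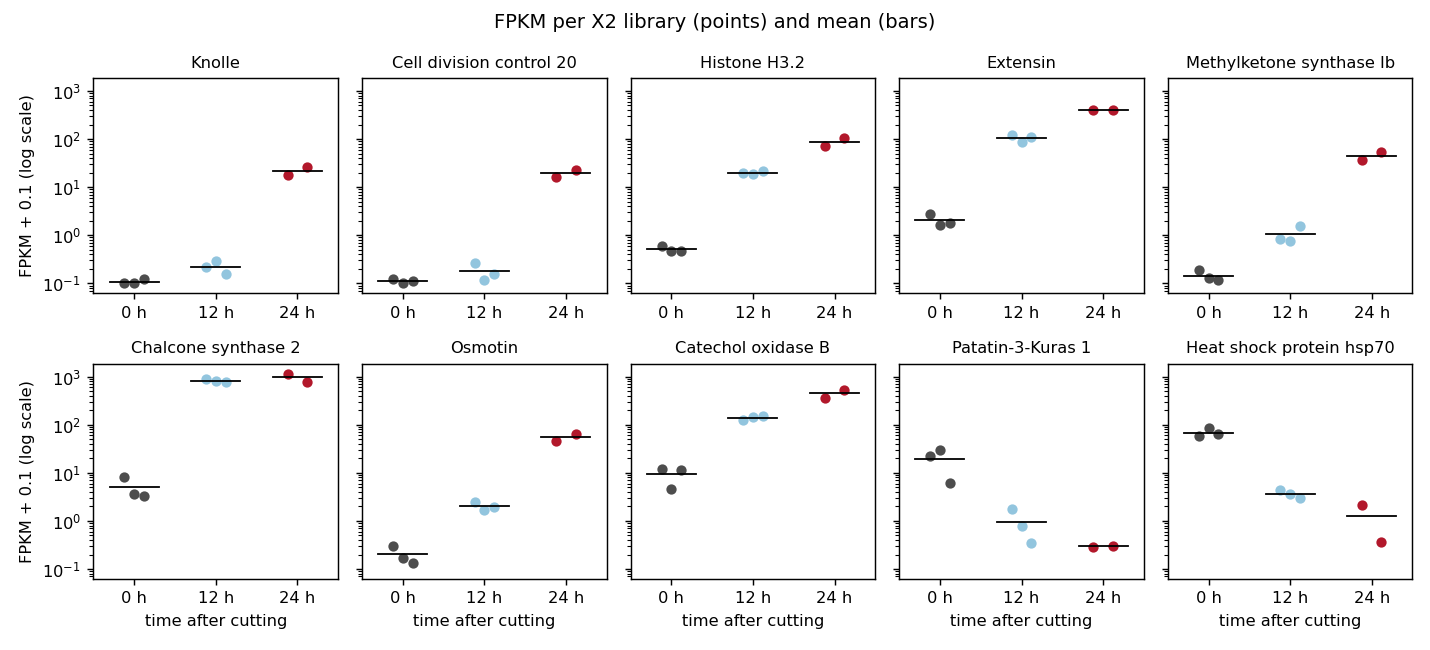
FPKM + 0.1 on a log scale for 10 named genes in the X2 libraries at 0 h (3 points), 12 h (3 points) and 24 h (2 points), with a bar at the mean of each time. Knolle and Cell division control 20 lie far higher at 24 h than at 0 or 12 h, chalcone synthase 2 lies between 775 and 1144 FPKM at both 12 and 24 h, and patatin-3-Kuras 1 and hsp70 lie below their 0 h level at both later times.

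Among hormone genes, 7 of 15 passed the filter and 6 were called up and 1 down, with a median log2FC of 4.65. The systemin receptor SR160 gene (PGSC0003DMG400013198), named for a tomato receptor kinase, had 31.9 and 36.1 FPKM at 24 h, against 0.0173, 0 and 0.0366 FPKM at 0 h, with a log2FC of 8.18 ± 0.23 (SE, adjusted p = 1.52e-05). Its 24 h libraries were alike and its 0 h libraries held at most 5 reads, and the difference from 12 h was 7.48 ± 0.32 (SE, adjusted p = 0.000103). A gibberellin regulated protein (PGSC0003DMG400001227) had 15.1 and 22.5 FPKM at 24 h, against 0.0879, 0 and 0.186 FPKM at 0 h, with a log2FC of 6.73 ± 0.47 (SE, adjusted p = 5.19e-05). GH3.6 (PGSC0003DMG400019274), an enzyme that joins auxin to amino acids, had 6.91 and 11.8 FPKM at 24 h, against 0.127, 0.0419 and 0.0859 FPKM at 0 h, with a log2FC of 5.65 ± 0.34 (SE, adjusted p = 3.42e-05), and was not called against 12 h. The groups did not overlap in any of these, as the naming rule required. Auxin-repressed protein (PGSC0003DMG400004897) was the member called down, with 1.43 and 1.59 FPKM at 24 h, against 40.6, 68.6 and 46.8 FPKM at 0 h and a log2FC of -4.98 ± 0.22 (SE, adjusted p = 1.92e-05). Of the genes under the filter, 1-aminocyclopropane-1-carboxylate synthase 3 (PGSC0003DMG400021426), an enzyme of ethylene synthesis, averaged 0.0543 FPKM at 24 h and 1.17 FPKM at 12 h, and gibberellin 2-oxidase (PGSC0003DMG400027645), which inactivates gibberellins, 0.295 FPKM at 24 h and 1.89 FPKM at 12 h, and both were called lower at 24 h than at 12 h.

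Among the browning and antioxidant enzyme families, PAL, polyphenol oxidase, peroxidase and Rboh genes were called mostly up, and catalase and superoxide dismutase genes were not. PAL, the entry enzyme of phenylpropanoid synthesis, had 9 of 9 tested genes called up, with a median log2FC of 3.06, and against 12 h 1 of 10 was higher and none lower. Of 6 listed polyphenol oxidase genes 5 passed the filter and all 5 were called up, with a median of 5.35. Against 12 h, 4 of 5 were also called higher at 24 h. Catechol oxidase B (PGSC0003DMG400029575), the most abundant of them, had 368 and 528 FPKM at 24 h, against 11.9, 4.49 and 11.2 FPKM at 0 h, and it differed from 12 h by 1.65 ± 0.17 (SE, adjusted p = 0.000762). Both 24 h libraries were above all libraries of 0 and 12 h. Of 41 listed peroxidase genes 29 passed the filter, and 22 were called up and 2 down, with a median of 3.33. Of the peroxidase genes under the filter, which were not tested, some averaged higher at 24 h than at 0 h and others lower. Of 7 listed Rboh genes, the NADPH oxidases that make superoxide, 5 passed the filter and all 5 were called up, with 4 after median-of-ratios scaling. Of the 4 genes listed as catalases, catalase isozyme 2 (PGSC0003DMG400001570) was called up at 3.49 and 2 were not called. The 1 called down, PGSC0003DMG400009908 (log2FC -2.22), is described as a gene of unknown function. Of 3 superoxide dismutase genes tested, PGSC0003DMG400027577 was called down, with 24.4 and 16.1 FPKM at 24 h, against 56.2, 45.8 and 49.3 FPKM at 0 h, and PGSC0003DMG400005247 up at 1.18. The call of PGSC0003DMG400005247 was lost at 0.85 after median-of-ratios scaling and at 0.86 with limma-voom on recovered reads.

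Marks of tuber storage tissue were read from the 3 genes described as patatin or proteinase inhibitor, and those of green tissue from the photosynthesis list. Patatin-3-Kuras 1 (PGSC0003DMG401017090), one of the patatins, the main storage proteins of tubers, had 0.191 and 0.206 FPKM at 24 h, against 21.8, 29.1 and 6.02 FPKM at 0 h, with a log2FC of -5.72 ± 0.64 (SE, adjusted p = 0.000316). Replicate 3 of 0 h was the lowest of its group and still above both 24 h libraries. With limma-voom on recovered reads the log2FC was -6.58, but the call, which rests on unadjusted p, was lost (adjusted p = 0.049). Proteinase inhibitor IIa (PGSC0003DMG400030593), under the FPKM filter and not tested, had 0.429 and 0.909 FPKM at 24 h, against 0.0325, 0.0230 and 0 FPKM at 0 h, and CEVI57, given with the defence genes, was not called. The 3 genes thus did not move in one direction, and all were below 1 FPKM in both 24 h libraries. The other patatin genes carry no description in the sources used here, so that these 3 genes cannot check the tuber label. Of the 7 photosynthesis genes tested 6 were called up and 1 down. The Photosystem II 22 kDa protein (PGSC0003DMG400017556), which dissipates excess light energy, had 95.4 and 92.7 FPKM at 24 h, against 0.558, 0.268 and 1.05 FPKM at 0 h, with a log2FC of 7.17 ± 0.45 (SE, adjusted p = 3.75e-05), and chlorophyll a/b-binding protein (PGSC0003DMG400007375) had 5.26 and 5.59 FPKM at 24 h, against 0.0951, 0 and 0.0403 FPKM at 0 h. The member called down was the photosystem Q(B) protein (PGSC0003DMG400017848), with means of 0.0366 FPKM at 24 h and 1.45 FPKM at 0 h. The 6 others averaged at most 0.627 FPKM at 0 h, and their part in the other results was not tested.

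Of the genes with the largest changes whatever their list, these rose. A conserved gene of unknown function (PGSC0003DMG400016176) had the largest log2FC of genes with a mean of at least 5 FPKM, 113 and 116 FPKM at 24 h, against 0.118, 0.151 and 0.160 FPKM at 0 h, with a log2FC of 8.88 ± 0.16 (SE, adjusted p = 1.52e-05), and it differed from 12 h by 7.62 ± 0.52 (SE, adjusted p = 0.000234). Gamma aminobutyrate transaminase isoform2 (PGSC0003DMG400025228), which breaks down the stress metabolite GABA, had 37.2 and 38.3 FPKM at 24 h, against 0.0131, 0.0185 and 0.0221 FPKM at 0 h, at least 1130-fold higher at 24 h. A 2OG-Fe(II) oxygenase gene (PGSC0003DMG400021383) had 222 and 284 FPKM at 24 h, against 1.30, 0.664 and 0.409 FPKM at 0 h, with a log2FC of 8.27 ± 0.41 (SE, adjusted p = 2.15e-05). None of these overlapped between the times, as the naming rule required. In all, 275 genes had at most 3 reads in each 0 h library and at least 1 FPKM in each 24 h library, and 22 genes were in the opposite state.

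The described genes that fell furthest were of diverse kinds. A cytochrome P450 71A1-like gene (Novel03642, chromosome 9 from 60037954 to 60039153, minus strand, SolTub_3.0), a predicted gene, had 0.111 and 0.0664 FPKM at 24 h, against 17.0, 21.7 and 18.9 FPKM at 0 h. With at most 3 reads in either 24 h library it was at least 183-fold lower at 24 h. An ATP binding protein (PGSC0003DMG400012174) had 0.144 and 0.0370 FPKM at 24 h, against 7.56, 26.7 and 18.9 FPKM at 0 h, with a log2FC of -6.43 ± 0.55 (SE, adjusted p = 0.000108). With limma-voom its log2FC was -8.02, and the call on unadjusted p was lost (adjusted p = 0.0209). Heat shock protein hsp70 (PGSC0003DMG400011197), a chaperone, had 2.02 and 0.270 FPKM at 24 h, against 57.4, 83.9 and 65.2 FPKM at 0 h, with a log2FC of -6.26 ± 0.68 (SE, adjusted p = 0.000273). The 24 h libraries of hsp70 stood apart, replicate 3 being the lower, yet both were below every 0 h library. A putative bHLH transcription factor (PGSC0003DMG401020927) had 0.955 and 0.0644 FPKM at 24 h, against 29.7, 25.8 and 21.1 FPKM at 0 h, with a log2FC of -5.93 ± 0.72 (SE, adjusted p = 0.000454), and its 24 h libraries also stood apart, with replicate 3 the lower. Sesquiterpene synthase 2 (PGSC0003DMG400020939) had 0.0103 and 0.0277 FPKM at 24 h, against 1.34, 6.12 and 3.75 FPKM at 0 h and was at least 128-fold lower at 24 h. Its call was also lost with limma-voom, at a log2FC of -7.55 (adjusted p = 0.0438).

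By level, the called genes that were most abundant carry no description in the sources used here and are named only. PGSC0003DMG400011751 was the highest at 24 h, with 3980 and 4082 FPKM at 24 h, against 186, 61.5 and 98.1 FPKM at 0 h, and a log2FC of 5.28 ± 0.44 (SE, adjusted p = 9.3e-05). PGSC0003DMG400000708 was the most abundant called gene at 0 h, with 2208 and 2152 FPKM at 24 h, against 7075, 6997 and 8721 FPKM at 0 h, and a log2FC of -1.79 ± 0.34 (SE, adjusted p = 0.00319), a call lost when either 24 h library was left out. PGSC0003DMG400003984 had 47.7 and 40.6 FPKM at 24 h, against 2322, 2075 and 2205 FPKM at 0 h, with a log2FC of -5.64 ± 0.15 (SE, adjusted p = 1.52e-05). The libraries of the times did not overlap in any of the 3, and 2 of these genes fell. Of the 6 called genes highest at 0 h, all fell, by log2FC of -1.79 to -5.64, and of the 6 highest at 24 h, 5 rose. Ranking called genes by their level at 0 h favours falls, and ranking them by their level at 24 h favours rises. These counts are therefore no evidence of direction.

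Transcription factors moved in both directions. Of the 993 members of the transcription factor list that passed the filter, with a median log2FC of 0.01, 269 were called up (27.1%) and 236 down (23.8%), and after median-of-ratios scaling 205 and 316 of 985. Of all genes tested, 33.5% were called up and 17.0% down, and 26.5% and 23.3% after that scaling. The 9 families with at least 30 members tested are described. WRKY factors, regulators of defence, were called up in 19 and down in 3 of 34 (55.9% and 8.82%), and bHLH factors in 19 and 8 of 40 (47.5% and 20%). AP2-EREBP factors, which include ethylene response factors, had 19 and 9 of 49 (38.8% and 18.4%), near the shares of all genes. MYB factors numbered 26 called up and 24 down of 70, and 22 and 28 of 69 after median-of-ratios scaling, so that the order of the directions turned with the scaling. In the C3H zinc finger family, whose members often bind RNA, none of 47 was called up and 17 were called down, and 0 and 20 after that scaling. At an adjusted p of at most 0.05 by limma with the same fold, 1 C3H gene was called up, a rule by which 52.2% of all genes were called. CCAAT-binding factors were called up in 5 and down in 12 of 33 and bZIP factors in 9 and 10 of 35. HB factors had 11 and 7 of 40 (27.5% and 17.5%), equal at 10 and 10 after the scaling. C2H2 factors had 7 and 5 of 32 (21.9% and 15.6%), turned to 6 and 7.

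**Figure D4:**
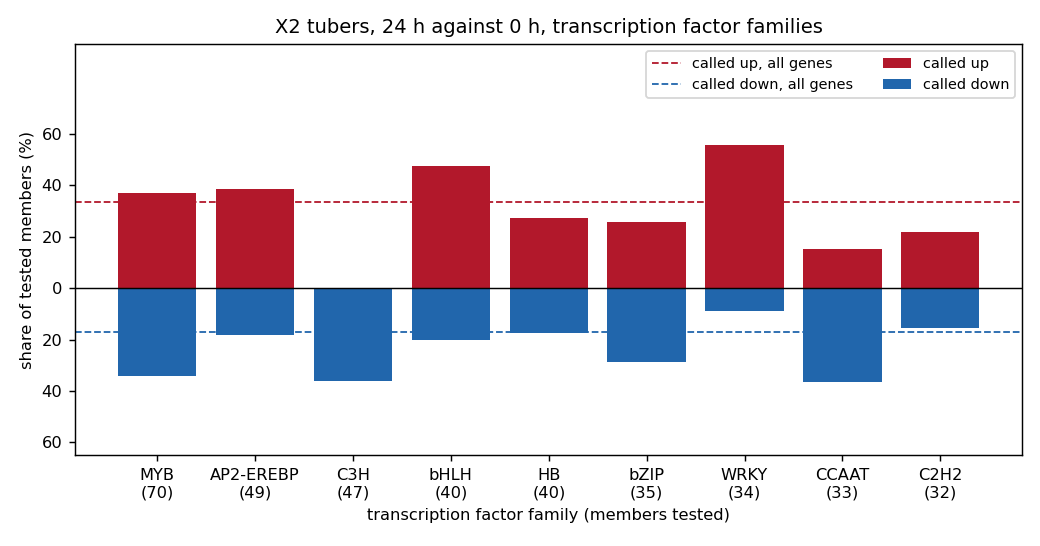
Bars give the share of tested members of each transcription factor family called up (above 0) and called down (below 0) at 24 h against 0 h in X2 with FPKM as deposited, and dashed lines the same shares over all genes, 33.5% and 17.0%. The number under each family is its members tested, and the C3H family has no bar above 0.

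Single factors were named from these families by size of change. Myb 12 transcription factor (PGSC0003DMG400004371), named for a regulator of flavonol synthesis in Arabidopsis, had 18.8 and 9.18 FPKM at 24 h, against 0.0620, 0.0147 and 0.0175 FPKM at 0 h, at least 264-fold higher at 24 h. The WRKY gene PGSC0003DMG400009703 had 10.6 and 16.6 FPKM at 24 h, against 0.476, 0.196 and 0.247 FPKM at 0 h, with a log2FC of 5.10 ± 0.36 (SE, adjusted p = 5.21e-05). The CCAAT gene PGSC0003DMG400013436 had 101 and 119 FPKM at 24 h, against 3.59, 2.35 and 1.99 FPKM at 0 h, with a log2FC of 5.36 ± 0.25 (SE, adjusted p = 1.94e-05), and its 24 h libraries were below all 12 h libraries, with a log2 difference of -1.13. These 3 showed no overlap between 24 h and 0 h, as the naming rule required. Of the C3H family, Novel02087 (chromosome 4 from 11378333 to 11389536, plus strand, SolTub_3.0) had 59.0 and 38.4 FPKM at 24 h, against 481, 530 and 543 FPKM at 0 h, with a log2FC of -3.44 ± 0.19 (SE, adjusted p = 2.95e-05). Novel01563 (chromosome 2 from 12628975 to 12655012, minus strand) had 7.75 and 6.97 FPKM at 24 h, against 87.2, 83.1 and 82.8 FPKM at 0 h, with a log2FC of -3.50 ± 0.09 (SE, adjusted p = 1.52e-05). The 0 h libraries of both agreed closely and both 24 h libraries were far lower. The HB gene PGSC0003DMG400008057 had 2.15 and 1.64 FPKM at 24 h, against 25.0, 24.2 and 22.9 FPKM at 0 h, with a log2FC of -3.61 ± 0.14 (SE, adjusted p = 1.57e-05). Between 24 and 12 h, 44 of 1005 transcription factors were called higher and 80 lower, and AP2-EREBP factors had 3 called higher and 13 lower of 57.

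D6 tubers, which share no library with X2, were sampled over the same interval, and the values are given without a test because D6 has 1 library at 0 h. Of the genes tested in X2, 29.9% were at least 2-fold higher at 24 h than at 0 h in D6 by mean log2(FPKM + 0.1) and 17.7% at least 2-fold lower. Of the 6605 genes called up in X2, 5031 (76.2%) were at least 2-fold higher in D6 and 79 (1.20%) at least 2-fold lower, and of the 3338 called down, 2385 (71.5%) were lower and 8 (0.240%) higher. All 30 tested genes of the replication list, 35 of 39 of the cell division list and 37 of 42 of the cell wall list were at least 2-fold higher in D6. Knolle had 18.9, 14.6 and 14.1 FPKM in D6 at 24 h, against 0.0618 FPKM at 0 h.

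Single genes had other levels in D6. Anthocyanin acyltransferase (PGSC0003DMG400018014) and the cytochrome P450 71A1-like gene (Novel03642) were listed at 0 in the 4 D6 libraries of 24 h and 0 h. The sterol desaturase gene (PGSC0003DMG402023841) had, in D6, 0.765, 1.90 and 4.17 FPKM at 24 h, against 0.0638 FPKM at 0 h. Beta expansin 1 (PGSC0003DMG400026022), with 27.7 and 19.5 FPKM at 24 h against 0.523, 0 and 0.0246 FPKM at 0 h in X2, had 0.848, 1.19 and 9.24 FPKM at 24 h against 2.25 FPKM at 0 h in D6, where the 24 h libraries lay on both sides of the 0 h library. Whether X2 and D6 differ in these genes was not tested.

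**Figure D5:**
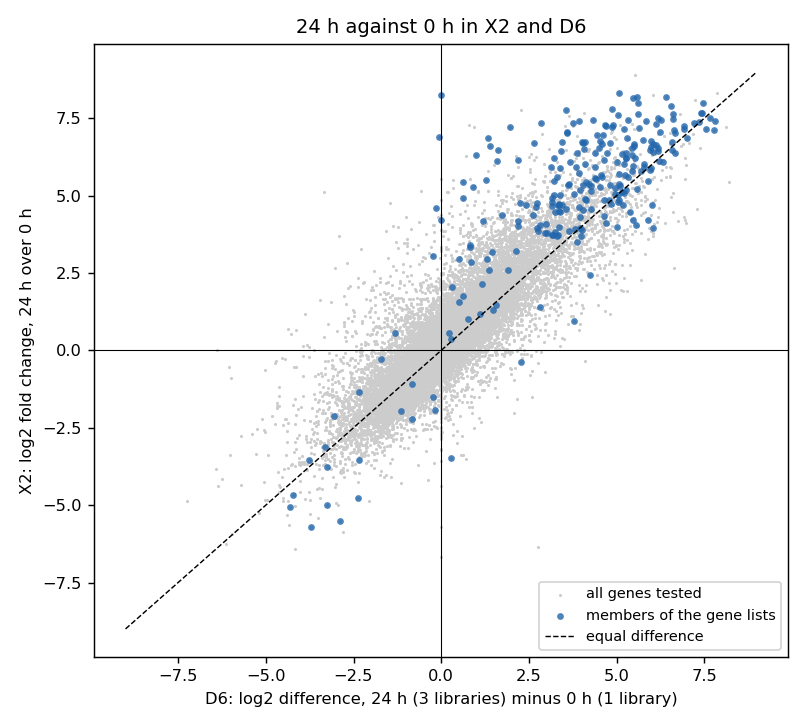
Each point is a gene, with the log2 difference of 24 h and 0 h in D6 (3 libraries and 1 library) on the horizontal axis and the log2 fold change of 24 h over 0 h in X2 (2 and 3 libraries) on the vertical axis, blue for members of the gene lists other than transcription factors and grey for all 19690 genes tested. Most members of the lists lie in the upper right, and a blue point at 0 in D6 and 8.25 in X2 is anthocyanin acyltransferase.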

How the data were processed

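RNA of X2 and D6 tubers was sequenced by the study on the Illumina platform. Per the study's methods, reads were aligned with HISAT to the potato genome SolTub_3.0 and counted per gene with featureCounts, and the authors deposited FPKM per gene, normalised to gene length and to reads on genes. The mapping of reads with several hits is not given in the sources used here. Of 22 columns of per-sample values, 14 were used and 8 were not, among them 2 that share a name.

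FPKM of the 19690 genes with a mean of at least 0.5 over the 5 X2 libraries of 24 h and 0 h were tested as log2(FPKM + 0.1) with limma 3.58.1 (R 4.3.3, empirical Bayes with trend), so that fold changes of low genes are understated. A gene was called at |log2FC| of at least 1 and unadjusted p of at most 0.01, and p-values were adjusted by Benjamini-Hochberg across all genes tested. The same test compared 24 h with 12 h. The script was tested on simulated data. Read numbers were recovered from the whole-read steps of FPKM for 28612 genes. Where every library of a time had at most 3 reads, the fold is a lower bound against the FPKM of 3 reads per library. These 3 reads are a fixed floor and no confidence limit, so that counting error and spread between pools are not covered. On 1 kb, 3 reads corresponded to 0.0716 to 0.101 FPKM at 0 h.

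The members and gene lists were chosen with earlier results of these data known. Named genes were the called, non-overlapping genes with the largest |log2FC| (up to 4 per list with a mean of at least 1 FPKM, 2 per transcription factor family), the 5 described genes of largest change in each direction and 3 of any description with a mean of at least 5 FPKM, and the 6 most abundant called genes of each time. List members that moved against their list, those named for their role and those compared with 12 h or D6 alone were chosen after their values were seen. Alternatives were another scaling (median of ratios), filter, pseudocount, threshold, model, replicate block, limma-voom on recovered reads and leaving out each library, and, chosen after seeing the data, a scaling that left out the 100 top genes of 0 h.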

Additional observations from a re-analysis of the deposited data

Results flagged for a closer look

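In 3 of the genes chosen by the naming rule the difference between 24 h and 12 h in X2 ran against that between 24 h and 0 h, both being called. Auxin-repressed protein (PGSC0003DMG400004897) was lower at 24 h than at 0 h and higher at 24 h than at 12 h, by 1.77 on the log2 scale, and this second call was lost with a pseudocount of 1 and without either 24 h library. PGSC0003DMG400004547 was likewise lower than at 0 h and higher than at 12 h, by 2.04. The CCAAT gene PGSC0003DMG400013436 was higher at 24 h than at 0 h, and its log2 difference from 12 h was -1.13. Other list members given above did likewise, among them Cdc6, Minichromosome maintenance 5 and cinnamoyl-CoA reductase, called up against 0 h and lower than at 12 h, and xyloglucan endo-transglycosylase and futsch, called down against 0 h and higher than at 12 h, by 2.04 and 1.73. Both contrasts share the 24 h libraries, and the difference between them was not tested.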

How the results depend on the processing

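No named gene changed direction under any alternative run, whereas the median over all genes changed sign with some scalings. The 6605 genes called up and 3338 called down became 5200 and 4569 with median-of-ratios size factors, 5455 and 4496 with limma-voom on recovered reads and 4936 and 4878 with the scaling without the 100 most abundant genes. The median log2FC of all genes was then 0.0252, 0.0435 and -0.0470, and it was 0.269 with no filter, 0.350 at a minimum mean FPKM of 1 and 0.291 with a pseudocount of 1. With |log2FC| of at least 1.5, 1965 genes were called down, 3 Rboh genes up, and of the transcription factors 5 AP2-EREBP, 3 bHLH, 4 HB, 6 bZIP, 0 WRKY, 7 CCAAT and 2 C2H2 genes down and 5 bZIP and 3 CCAAT genes up. The median-of-ratios scaling gave 5 WRKY genes down. Both limma-voom and the scaling without the 100 genes gave 16 bZIP and 7 WRKY genes down, and the scaling also 4 bZIP and 3 CCAAT genes up. The suberin list had 9 genes called up at a minimum mean FPKM of 1, the hormone list 11 with no filter, and C3H 1 gene up with no filter, with an adjusted p of at most 0.05 and with all X2 libraries in 1 model. C2H2 had 8 genes down with no filter and 3 with a pseudocount of 1. Between 24 and 12 h, a pseudocount of 1 gave 583 genes called lower, against 933, and a median of -0.0623, and median-of-ratios scaling gave a median of 0.00798. The cause of these moves was not tested.

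With single libraries left out, 5340 to 6701 genes were called up and 3104 to 3260 down, and the median was 0.312 to 0.396. The suberin list gave 9 to 16 genes up, lowest without replicate 3 of 24 h, and C3H 0 to 1. Against 12 h, the median was -0.0947 to -0.0706, the replication list gave 4 to 9 genes higher and the suberin list 2 to 6, both lowest without replicate 3 of 24 h. The times share the replicate numbers 1 and 3 only. The deviations of same-numbered libraries from their group means correlated across genes with r of -0.155 and -0.101. With 2 libraries at 24 h these deviations mirror each other, so that the values cannot decide whether same-numbered libraries were paired. A fit with the replicate block called 6516 genes up and 3214 down, and PGSC0003DMG400000708 lost its call in it and without either 24 h library. Voom also lost the calls of patatin-3-Kuras 1, sesquiterpene synthase 2 and PGSC0003DMG400012174, and that of superoxide dismutase PGSC0003DMG400005247, at a log2FC of 0.86. With 2 libraries at 24 h, and 3 reads as the floor, small differences between low genes were not detectable at this depth.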
